A study of Homo sapiens with 6 samples.

Results

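The STAT genes examined here are STAT2, STAT3, STAT4, STAT5A, STAT5B and STAT6, which were read by symbol from the count table of the series and make up 6 of its 37887 rows. RNA-seq was performed on BT-549 cells, an established triple-negative breast cancer (TNBC) line with a mesenchymal character. By the series design, the cells stably carry a doxycycline-inducible (tet) shRNA vector against PBRM1. PBRM1 is the chromatin-targeting subunit of the PBAF remodeling complex, and the question addressed is which transcripts depend on it. The control group (shCTL) holds 3 libraries of cells given vehicle, 0.1% DMSO, and the silenced group (shPBRM1) holds 3 libraries of cells given 500 ng/ml DOX. The titles call the control libraries control shRNA, and the paper names control shRNA and PBRM1 shRNA cells in its PBRM1 experiments. The series design instead describes vehicle-treated cells of the tet-PBRM1shRNA line. In either reading an effect of DOX itself cannot be told apart from silencing. Each group stands for a single transduced line and a single shRNA. The libraries held 36429395, 47996676 and 49784336 counts in shCTL replicates 1, 2 and 3 and 60221790, 40035400 and 65096297 counts in shPBRM1 replicates 1, 2 and 3. PBRM1 itself had 5870, 7619 and 8118 counts in shCTL and 2598, 1591 and 2657 counts in shPBRM1, so that 26.5% of its normalized control level was left.

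STAT proteins are latent transcription factors of the cytoplasm. Cytokine and interferon (IFN) receptors carry Janus kinases (JAK), which phosphorylate STATs on a tyrosine, and the phosphorylated STATs dimerize, enter the nucleus and bind DNA. STAT2 is the member dedicated to type I and III IFN, and it joins IRF9 in the ISGF3 complex, which binds the IFN-stimulated response element (ISRE). The others act largely on the IFN-gamma-activated site (GAS) type of element. STAT3 follows IL6-family cytokines, STAT4 follows IL12 in lymphocytes, STAT5A and STAT5B follow prolactin, growth hormone and IL2, and STAT6 follows IL4 and IL13.

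The label of a mesenchymal TNBC line was compared with marker genes. SPARC, CD44, VIM, FN1, CDH2 and ZEB1 summed to between 6542 and 7125 CPM (counts divided by the TMM-scaled library size, on the per-million scale) in every library, with SPARC the most abundant. FN1, ZEB1 and SPARC were lower, at 39.9%, 68.3% and 77.6% of control, and VIM, CD44 and CDH2 were higher, at 124%, 138% and 145%. ESR1 had no more than 2 counts in any library and PGR no more than 12, and ERBB2 was present at between 49.6 and 52.4 CPM. The 8 leukocyte markers summed to 0.991, 1.34 and 1.15 CPM in shCTL and 0.816, 0.899 and 0.816 CPM in shPBRM1. CD3D, CD3E and MS4A1 had no count in any library. For PTPRC, the general leukocyte marker, the mean level went from 0.797 ± 0.0907 to 0.132 ± 0.0587 CPM (SD, n = 3 in each group). CD14 went from 0.331 ± 0.125 to 0.678 ± 0.0735 CPM (SD, n = 3 in each group) and was the most abundant of the 8 over all libraries. The 4 epithelial markers, led by CDH1, summed to 7.21, 6.13 and 7.04 CPM in shCTL and 2.87, 2.47 and 1.95 CPM in shPBRM1. The 3 endothelial markers, led by PECAM1, summed to 0.188, 0.288 and 0.496 CPM in shCTL and 0.0666, 0.0257 and 0.0941 CPM in shPBRM1. Mesenchymal, leukocyte and epithelial markers thus moved with the groups, as did the endothelial sums, which were no more than 0.496 CPM. The part of these markers in the results was not tested.

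**Figure D1:**
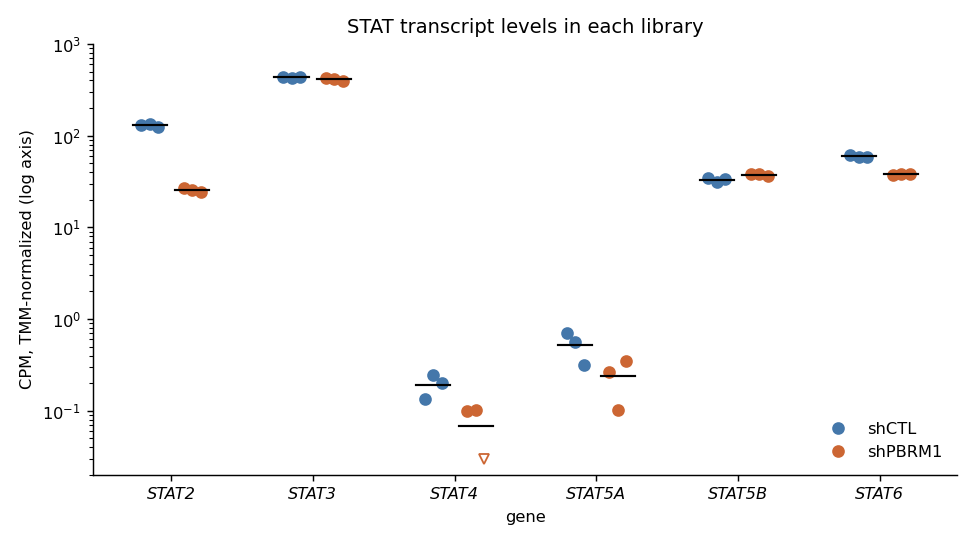
Levels of the 6 STAT genes in each library. The vertical axis gives TMM-normalized CPM on a log scale, each point is a library, bars are the means of 3 libraries, and the open triangle stands for 0 counts. STAT2 separates widely between the groups, STAT6 less so, STAT3 and STAT5B lie close, and STAT4 and STAT5A stay below 1 CPM.

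STAT2 was the STAT gene with the largest loss, STAT6 fell less, STAT5B rose slightly, STAT3 did not pass the test, STAT5A was called lower at a very low level under some settings only, and STAT4 was too low to test. Of the 6 genes, 5 passed the filter on low counts. Counts were tested with edgeR, and p-values were adjusted over all genes tested. STAT2 and STAT5A changed more than 2-fold at the threshold of 0.05, both as decreases, where 12.6% of the 15450 tested genes did so, 9.68% as decreases and 2.87% as increases. The call of STAT5A was lost with DESeq2 and in 4 of the 6 fits that left out 1 library, which leaves STAT2 alone. Without a fold minimum, 3 STAT genes were lower and 1 was higher. That share, 4 of 5 genes, stands beside a background of 64.7% called genes, 33.2% lower and 31.5% higher, and is not a result about the family. STAT3 was called lower as well with the replicate number as a block (edgeR adjusted p = 0.044). Library size as the only scaling also called it (edgeR adjusted p = 0.0144). What separates the members is the size of their changes, against a median absolute log2 fold change of 0.35 over all tested genes. In bulk RNA, fewer cells expressing a gene and less RNA per cell cannot be told apart.

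**Figure D2:**
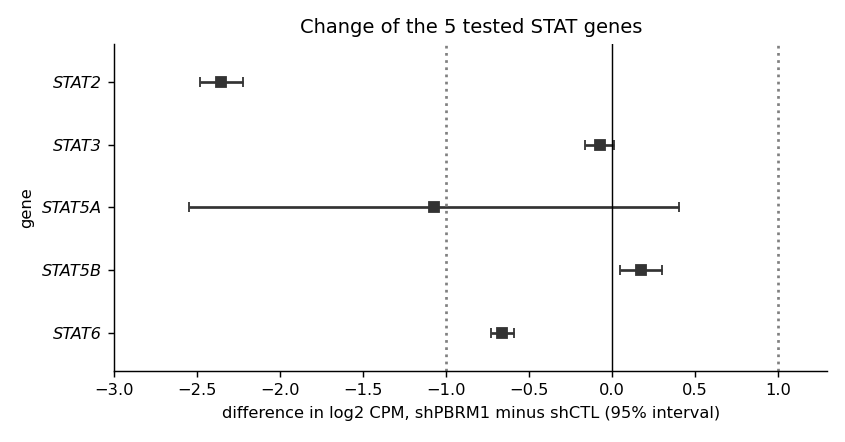
Change of the 5 tested STAT genes. The horizontal axis gives the difference in mean log2 CPM between shPBRM1 and shCTL with its 95% interval from the spread of 3 libraries per group, and dotted lines mark a fold change of 2. The interval of STAT2 lies entirely beyond the 2-fold line, that of STAT6 lies between this line and 0, and those of STAT3 and STAT5A include 0.

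STAT2 (ENSG00000170581.13) lies on chromosome 12 from 56341597 to 56360155 of GRCh38, on the minus strand. It had 4881, 6533 and 6332 counts in shCTL and 1593, 991 and 1550 counts in shPBRM1, and its normalized levels were 131, 134 and 126 CPM against 26.5, 25.5 and 24.3 CPM. Every silenced library was thus far below every control library. The mean fell from 130.2 ± 4.44 to 25.4 ± 1.11 CPM (SD, n = 3 in each group), which is 19.5% of control. Its log2 fold change was -2.36 (standard error, SE, 0.046; edgeR adjusted p = 5.63e-23). Of all tested genes, 2.76% changed by more in size. The genes with the most similar profile over the 6 libraries, by Euclidean distance of centered log2 CPM among 10281 candidates, were PARP12 (distance 0.108, log2 fold change -2.39), MMP2 (0.133, -2.34) and H1F0 (0.141, -2.33).

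IRF9, the DNA-binding partner of STAT2 in ISGF3, had 465, 539 and 504 counts in shCTL and 206, 117 and 170 counts in shPBRM1. Its level fell from 11.2 ± 1.2 to 3.04 ± 0.383 CPM (SD, n = 3 in each group), a log2 fold change of -1.88 (SE 0.138, edgeR adjusted p = 9.19e-13). Both subunit genes were therefore lower in all 3 silenced libraries. All 20 listed ISGF3 target genes were lower by more than 2-fold, where 9.68% of all tested genes were, with a median log2 fold change of -6.68 where the median of all tested genes was -0.0080. Earlier results on these data had already shown such decreases, so the list is not independent evidence. The largest were those of OAS1 (log2 fold change -10.94), OAS2 (-10.78), MX1 (-9.35) and MX2 (-9.13), which encode enzymes of the 2'-5' oligoadenylate system and GTPases with antiviral activity. MX2 had 2511, 3458 and 3604 counts in shCTL and 8, 2 and 10 counts in shPBRM1.

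The upstream sequences of these genes show what the DNA elements look like. RefSeq promoter windows of GRCh38.p14, from 250 bases before to 50 bases after each start, were searched on both strands for the ISRE core, spelled GAAA, any 2 bases and GAAA (TTTC, any 2 bases and TTTC on the other strand), and the GAS letters TTCNNNGAA, which read the same on both strands. The search found the ISRE core in 12 of the 13 ISGF3 target genes with a window, against 4.38% of all 27305 genes and 3.57% of all 35116 windows. GAS was found in 5 of the 13, against 9.38% of all genes and 7.66% of all windows. Over all 35116 windows, matches of the 2 motifs overlapped or adjoined in 22. Examples from the targets, with the ISRE core in capitals, were chosen after the matches were seen.
ISG15 (chr1:1013381-1013408, plus strand): cgggaaaggGAAACCGAAActgaagcca
IFIT1 (chr10:89392498-89392525, plus strand): tagctttagTTTCACTTTCccctttcgg
RSAD2 (chr2:6877623-6877650, plus strand): tgtttcaacTTTCAGTTTCacatgtgga
OAS3 (chr12:112938322-112938349, plus strand): gaaagaaacGAAACTGAAAgcagggaat
BST2 (chr19:17405742-17405769, minus strand): cctttctggGAAACTGAAActgaaaacc

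The same letters were not in the 9 windows of the 6 STAT genes, for either motif. The IRF9 window held a GAS match, shown here in capitals.
IRF9 (chr14:24161193-24161219, plus strand): ccacgtgatTTCTGGGAAaaggccctc
The stretch of the STAT2 window that lies before all annotated starts of the gene, 202 bases with a GC content of 67.8%, is printed since STAT2 changed most among the STAT genes.
STAT2 (chr12:56360156-56360357, minus strand): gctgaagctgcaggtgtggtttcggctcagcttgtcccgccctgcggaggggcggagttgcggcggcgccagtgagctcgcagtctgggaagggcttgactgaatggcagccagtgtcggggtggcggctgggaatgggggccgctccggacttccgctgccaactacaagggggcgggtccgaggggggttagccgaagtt
A match is a description of letters in a short window, and an absent match says nothing about elements elsewhere.

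STAT6 (ENSG00000166888.11) lies on chromosome 12 from 57095408 to 57132139, 735 kb from STAT2. Its counts were 2282, 2865 and 2972 in shCTL and 2214, 1497 and 2410 in shPBRM1, which is 61.1, 58.9 and 58.9 CPM against 36.9, 38.5 and 37.8 CPM. The groups did not overlap, and the mean fell to 63.2% of control, from 59.7 ± 1.27 to 37.7 ± 0.797 CPM (SD, n = 3 in each group). The log2 fold change was -0.66 (SE 0.025, edgeR adjusted p = 3.37e-12), a change that 24.4% of tested genes exceeded in size. The nearest profiles were those of WWP2 (distance 0.0484, log2 fold change -0.68), CES2 (0.0531, -0.68) and ARSB (0.0533, -0.64). In the annotation STAT6 overlaps NAB2 and LRP1 on the opposite strand. NAB2 had a log2 fold change of -1.0 and LRP1 of -0.82, and since the strand setting of the counting is not given, reads from the overlaps cannot be told apart here.

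The decrease of STAT2 relative to STAT6 was measured within each library, which removes any scaling of libraries. The log2 ratio of STAT2 to STAT6 was 1.10, 1.19 and 1.09 in shCTL and -0.47, -0.59 and -0.64 in shPBRM1. STAT2 thus had more counts than STAT6 in each control library and fewer in each silenced library. The ratio moved by -1.69 (95% interval -1.85 to -1.53), with p = 0.1 in the exact two-sided permutation test, the smallest p that 3 libraries against 3 allow.

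STAT3 (ENSG00000168610.14), on chromosome 17 from 42313324 to 42388568, was the most abundant of the 6 genes. It had 16380, 20869 and 21950 counts in shCTL and 25567, 16247 and 25296 counts in shPBRM1. Its normalized levels were 439, 429 and 435 CPM in shCTL and 426, 417 and 397 CPM in shPBRM1. All 3 silenced libraries lay below the control libraries, by a small margin, and such a separation was found for 4 of the 5 tested STAT genes and 68.3% of all tested genes. The log2 fold change was -0.07 (95% interval -0.16 to 0.02, edgeR adjusted p = 0.127). With the replicate number as a block it was again -0.07 with an adjusted p of 0.044 from edgeR, past the threshold, and with library size as the only scaling it was -0.12 (adjusted p = 0.0144). Among tested genes, 88.4% changed by more in size. Its nearest profiles were POGK (distance 0.0369, log2 fold change -0.08), ZNF791 (0.0394, -0.09) and SLC22A23 (0.0448, -0.07).

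STAT5B (ENSG00000173757.9), on chromosome 17 from 42199168 to 42276707, had 1274, 1528 and 1705 counts in shCTL and 2269, 1487 and 2302 counts in shPBRM1. Levels were 34.1, 31.4 and 33.8 CPM against 37.8, 38.2 and 36.1 CPM, so that the silenced libraries were all higher. The mean rose to 112.8% of control, with a log2 fold change of 0.17 (SE 0.045, edgeR adjusted p = 0.00592), and 72.8% of tested genes changed by more in size. NUDCD3, YLPM1 and ZMYM3 had the nearest profiles, with log2 fold changes of 0.17, 0.18 and 0.14 at distances of 0.0536, 0.0542 and 0.0560. The within-library log2 ratio of STAT3 to STAT5B was 3.68, 3.77 and 3.68 in shCTL and 3.49, 3.45 and 3.46 in shPBRM1. It fell by 0.25 (95% interval of the change -0.33 to -0.16, p = 0.1, the smallest possible, in the exact two-sided permutation test).

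STAT5A (ENSG00000126561.16) lies between STAT5B and STAT3, on chromosome 17 from 42287547 to 42311943, and was barely expressed. Its counts were 26, 27 and 16 in shCTL and 16, 4 and 22 in shPBRM1, which is 0.697, 0.555 and 0.317 CPM against 0.267, 0.103 and 0.345 CPM. The groups overlapped, since shPBRM1 replicate 3 was above shCTL replicate 3. The log2 fold change was -1.02 (95% interval from the replicate spread -2.55 to 0.41, edgeR adjusted p = 0.0413). DESeq2 did not call it (adjusted p = 0.103). The call was also lost without shCTL replicate 1 (log2 fold change -0.79), shCTL replicate 2 (-0.97), shPBRM1 replicate 1 (-1.07) or shPBRM1 replicate 2 (-0.74). STAT5A and STAT5B encode closely related proteins, and 8.61% of the distinct 50-base words of STAT5A transcripts also occur in STAT5B transcripts. For the other STAT genes the share of words found in any other gene was between 0.906% (STAT2) and 1.37% (STAT3), apart from STAT5B with 9.0%. The change in the log2 ratio of STAT5A to STAT5B was -1.25 (95% interval -2.78 to 0.29, exact two-sided permutation test, p = 0.2). The nearest profiles to STAT5A were at large distances, MAPK11 (distance 1.01), HERC2P2 (1.03) and NEDD4L (1.04), with log2 fold changes of -0.67, -1.07 and -0.82.

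STAT4 (ENSG00000138378.18), on chromosome 2 from 191029576 to 191151596, had 5, 12 and 10 counts in shCTL and 6, 4 and 0 counts in shPBRM1. A count of 0 in shPBRM1 replicate 3 allows a level of up to 0.0471 CPM, for counting error only, and the highest level was 0.247 CPM in shCTL replicate 2. The counts of the groups overlapped. The normalized levels did not, with a lowest shCTL value of 0.134 CPM and a highest shPBRM1 value of 0.103 CPM. Such a separation was found for 68.3% of all tested genes. The filter on low counts left STAT4 out of the test. The difference in mean log2 CPM was -1.30 (95% interval -3.08 to 0.48), and with no filter edgeR gave an adjusted p of 0.105.

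Levels were compared between genes after division by exon length. In shCTL cells the order was STAT3 (49.3 ± 0.548 CPM per kb, SD, n = 3), STAT2 (21.3 ± 0.728), STAT6 (8.18 ± 0.175), STAT5B (5.14 ± 0.229), STAT5A (0.0909 ± 0.0333) and STAT4 (0.0403 ± 0.0118). In shPBRM1 cells it was STAT3 (46.9 ± 1.69 CPM per kb, SD, n = 3), STAT5B (5.80 ± 0.172), STAT6 (5.17 ± 0.109), STAT2 (4.16 ± 0.182), STAT5A (0.0414 ± 0.0215) and STAT4 (0.0141 ± 0.0122). STAT2 moved from the place after STAT3 to below STAT5B and STAT6, and the last 2 changed places. The libraries of neighbors in this order did not overlap, except for STAT5A and STAT4 in shPBRM1. Of the sum over the 6 genes, STAT2 made up 25.4% ± 0.812 (SD, n = 3) in shCTL and 6.70% ± 0.103 (SD, n = 3) in shPBRM1, while STAT3 went from 58.6% ± 0.567 to 75.5% ± 0.350 (SD, n = 3) with little change of its own level.

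**Figure D3:**
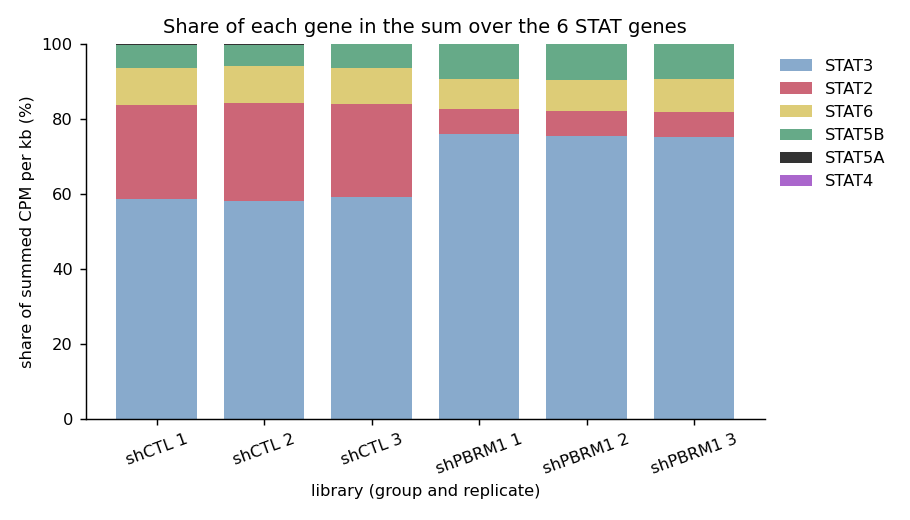
Share of each gene in the sum of CPM per kb over the 6 STAT genes, for each library. STAT2 is between 24.7% and 26.2% of the sum in the shCTL libraries and between 6.64% and 6.82% in the shPBRM1 libraries, and STAT3 takes up between 75.2% and 75.9% in the latter. STAT4 and STAT5A are too low to be seen.

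The genes beside STAT2, STAT6 and the chromosome 17 STAT genes were examined by position. STAT5B, STAT5A and STAT3 lie side by side, with 10.8 kb between STAT5B and STAT5A and 1.38 kb between STAT5A and STAT3. Beyond STAT3, CAVIN1, a coat protein of caveolae, rose by a log2 fold change of 0.28 (edgeR adjusted p = 2.10e-06), and ATP6V0A1, a proton pump subunit, rose by 0.48 (adjusted p = 4.17e-09). On the other side, GHDC and RAB5C had log2 fold changes of -0.15 and -0.02 and did not pass the test. Next to STAT2, PAN2, a deadenylase subunit, and IL23A, a cytokine subunit, fell by log2 fold changes of -1.35 (adjusted p = 2.33e-12) and -1.84 (adjusted p = 7.68e-04), although IL23A was at only 0.608 CPM in shCTL. On the far side TIMELESS rose by 0.20 (adjusted p = 1.25e-04), and SPRYD4 (0.22) did not pass. The 4 neighbors of STAT6 were all lower, where 33.2% of all tested genes were, namely NAB2, LRP1, NXPH4 (log2 fold change -0.74) and SHMT2 (-0.40).

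**Figure D4:**
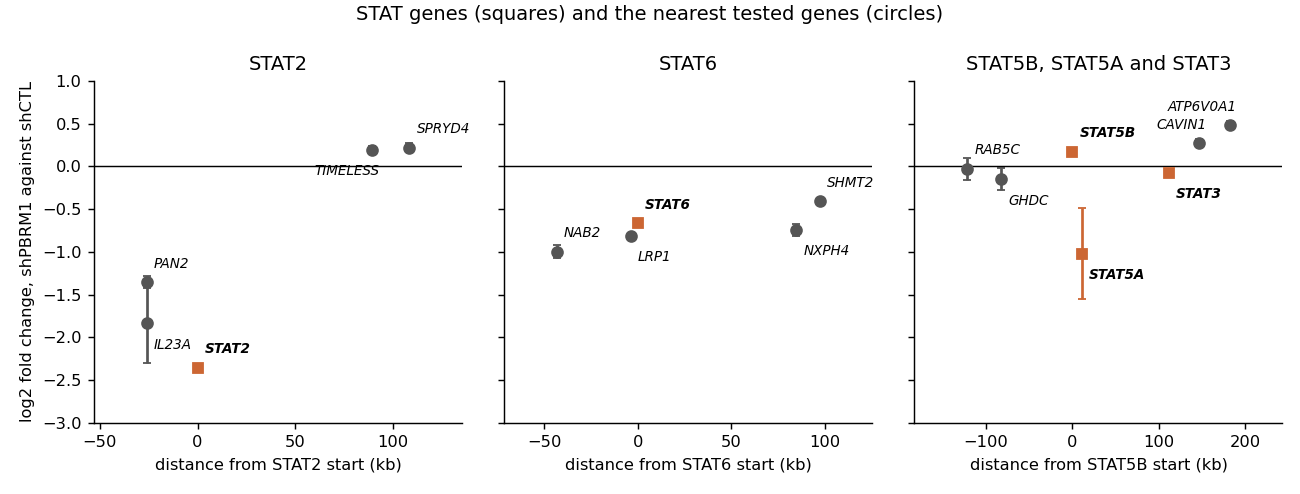
Log2 fold changes of STAT genes (squares) and of the nearest tested genes on each side (circles), against the distance in kb between start sites, measured from STAT2, STAT6 and STAT5B in turn. Error bars are standard errors from the replicate spread with 3 libraries per group. Genes on both sides of STAT6 are lower, whereas decreases near STAT2 are on only 1 side and STAT3 is followed by genes that rose.

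The kinases and receptors upstream of the STATs moved in different directions. All 4 Janus kinase genes were lower, where 33.2% of all tested genes were. JAK2, which serves the IFN-gamma and growth hormone receptors, went from 74.1, 77.9 and 78.4 CPM in shCTL to 55.3, 49.3 and 52.1 CPM in shPBRM1, a log2 fold change of -0.55 (SE 0.054, edgeR adjusted p = 7.22e-11). JAK1, the most abundant, had a log2 fold change of -0.29, and TYK2 had -0.21. JAK3, which pairs with the common gamma chain in lymphocytes, was low at 56, 85 and 71 counts and fell to 30, 14 and 17 counts (log2 fold change -2.04). Of 5 tested receptor chains for IFN, 0 were lower and 4 were higher, where 31.5% of all tested genes were higher, and this count was 3 with DESeq2 and in 4 of the 6 fits that left out 1 library. The 4 were IFNAR2 (log2 fold change 0.69), IL10RB (0.51), IFNAR1 (0.43) and IFNGR2 (0.38). IFNGR1 did not pass the test (-0.02, 95% interval -0.06 to 0.01). IFNAR1, a chain of the type I receptor, was at 61.9, 58.3 and 62.7 CPM in shCTL and 82.2, 77.9 and 86.5 CPM in shPBRM1.

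Of 19 tested chains of other cytokine receptors, 9 were lower and 6 higher, beside 33.2% and 31.5% of all tested genes, with a median log2 fold change of 0.036. Past 2-fold, 5 were lower and 0 higher, beside 9.68% and 2.87% of all tested genes, namely IL22RA1 (log2 fold change -4.04), IL7R (-2.08), IL21R (-1.53) and, with means below 1 CPM and named after their values were seen, IL12RB1 (-2.47) and CNTFR (-2.04). IL12RB2, the partner of IL12RB1 in the IL12 receptor, was higher (0.95). The shared chain of the IL6 family, IL6ST, fell from 703 ± 19.9 to 459 ± 6.93 CPM (SD, n = 3 in each group), a log2 fold change of -0.62. The common gamma chain gene IL2RG had no count in any library.

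Among 15 tested genes that restrain STAT signaling, 2 were lower and 3 higher, and 0 passed a fold change of 2, where 64.7% of all tested genes were called and 12.6% were called past 2-fold. PTPN11, the phosphatase SHP2, rose from 300.2 ± 4.12 to 481 ± 11.4 CPM (SD, n = 3 in each group), a log2 fold change of 0.68 (edgeR adjusted p = 4.84e-13). PTPN1, a phosphatase of JAK2 and TYK2, fell by 0.58 on the log2 scale. PIAS4 (0.34) and PIAS2 (0.24) rose. SOCS3, the feedback inhibitor induced by STAT3, was at 44.2, 43.0 and 43.5 CPM in shCTL and 42.8, 49.2 and 43.1 CPM in shPBRM1, with overlapping groups (log2 fold change 0.04, 95% interval -0.14 to 0.23, adjusted p = 0.483). CISH, a target of STAT5, was below 1 CPM in every library and did not pass the test either (-0.02, 95% interval -0.97 to 1.04). Among 7 STAT partner genes, 5 were lower and 1 was higher, again beside 33.2% and 31.5% of all tested genes. NMI, a STAT-interacting protein that IFN induces, fell with a log2 fold change of -1.62. The coactivator CREBBP fell (-0.38) and the importin KPNA1 rose (0.39).

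**Figure D5:**
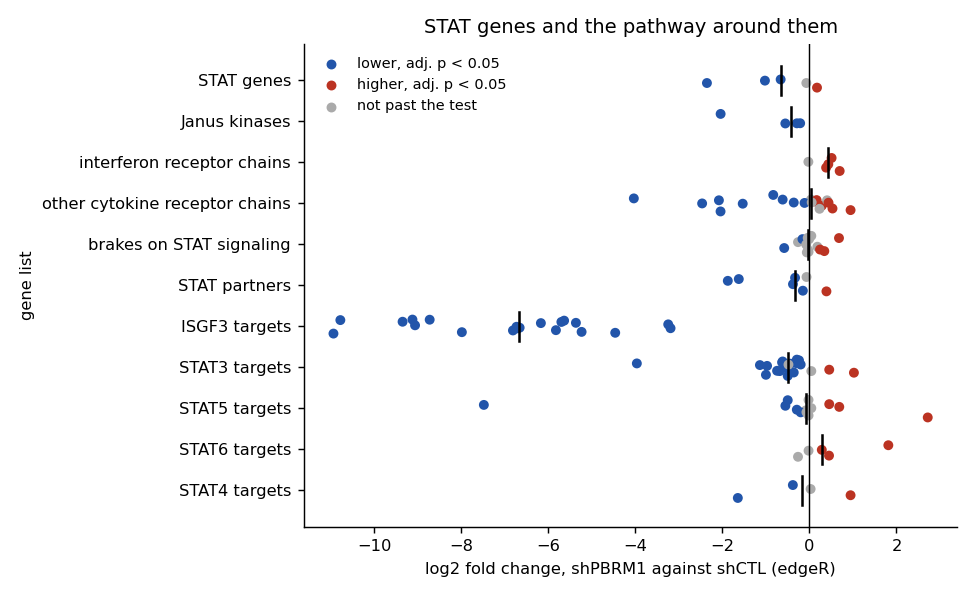
Log2 fold changes of the tested genes in 10 lists around the STAT genes, with each list's median as a black line. Blue and red points were lower and higher at an edgeR adjusted p under 0.05, and gray points did not. ISGF3 targets lie far to the left with a median of -6.68, and the medians of the other lists lie between -0.49 and 0.43.

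Target genes of the single STATs were listed from general knowledge, and 5 genes are shared by the STAT3 and STAT5 lists. Of 20 STAT3 target genes, 16 were lower and 2 higher, where 33.2% and 31.5% of all tested genes were, with a median log2 fold change of -0.49. IL6 was lowest, at 141, 145 and 145 CPM in shCTL and 8.85, 9.35 and 9.38 CPM in shPBRM1 (log2 fold change -3.97, edgeR adjusted p = 3.61e-27). VEGFA, an angiogenic factor, and BCL2, an inhibitor of apoptosis, fell by 1.14 and 1.0 on the log2 scale. BIRC5, which also acts in mitosis, rose by 1.02. Of 13 tested STAT5 target genes, 5 were lower and 3 higher, beside 33.2% and 31.5% of all tested genes, with a median of -0.069. IL2RA, a subunit of the IL2 receptor, rose by 2.72 and the kinase gene PIM2 by 0.69, while BCL6 (-0.55) and MYC (-0.50) were lower. IGF1, named after its values were seen, had 23, 17 and 20 counts in shCTL and 0 counts in each shPBRM1 library. Only 5 of 13 STAT6 target genes could be tested, of which 3 were higher and 0 lower, beside 31.5% and 33.2% of all tested genes. POSTN, a matrix protein, rose from 23.3 ± 0.233 to 81.8 ± 0.799 CPM (SD, n = 3 in each group), a log2 fold change of 1.81, followed by TGM2 (0.45) and IL4R (0.28). Of 7 STAT4 target genes, 4 could be tested, and IFNG had no count. IL18R1 (-1.65) and HLX (-0.38) were lower and IL12RB2 was higher, beside 64.7% of all tested genes called. These 3 calls became 1 without shPBRM1 replicate 3 and 2 with DESeq2 and without shCTL replicate 2, shCTL replicate 3 or shPBRM1 replicate 1.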

How the data were processed

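The values used are raw counts, deposited as a table with 1 row per gene symbol. The submitters' processing notes name CASAVA 1.8.2, STAR 2.7.9a, GRCh38.p7, featureCounts and DESeq2 1.24.0. The annotation and the strand setting are not given in the sources used here, and the libraries were made with a stranded mRNA kit. Tests used edgeR 4.0.16 under R 4.3.3 (TMM, filterByExpr, quasi-likelihood test, Benjamini-Hochberg adjustment over 15450 genes), with DESeq2 1.42.0 as an alternative. CPM uses TMM-scaled library sizes. Log2 CPM has a prior count of 2, and standard errors and 95% intervals come from its pooled spread between replicates (4 df). Positions and exon lengths are from GENCODE v29 (98.7% of tested symbols matched).

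Groups and replicate numbers come from the sample titles. The 3 control columns of the count table name the cell line and a number but no control or shRNA, and were matched to the control titles by that number. Same-numbered libraries deviated together, with correlations of 0.734, 0.593 and 0.419 across 5622 genes (0.464 for shCTL replicate 2 with shPBRM1 replicate 3, and no more than 0.051 for other pairs), so the replicate number was fitted as a block as an alternative. Nothing states that replicates were separate cultures beyond their being grown in triplicate, so p-values measure the spread between these libraries. Chi-square per degree of freedom between replicates was between 4.66 and 22.6, above counting noise, so no file repeats another.

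Members and lists were chosen with earlier results of these data known. Named genes are the 6 STAT genes, PBRM1, IRF9, the Janus kinases, the 4 genes of each list that changed most, provided that they passed the test and had a mean of at least 1 CPM, the 2 nearest tested genes on each side, and the 3 nearest profiles among genes with at least 5 CPM. Marker genes, IL6ST, IGF1, and genes named as low, uncounted or not past the test fall outside this rule and were chosen after their values were seen. Scripts were first run on simulated counts. Some genes of the table are left out of the text.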

Additional observations from a re-analysis of the deposited data

How the results depend on the processing

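Precision is limited by 3 libraries a group and, for STAT4 and STAT5A, by counts of 27 or fewer. The number of STAT genes past a fold change of 2 was 2 and became 1 with DESeq2, with a mean of at least 50 counts, which left STAT5A untested, and with glmTreat, and it lay between 1 and 2 with each library left out. The log2 fold change of STAT5A was -1.08 with DESeq2 (adjusted p = 0.103) and lay between -1.38 and -0.74 with each library left out. That of STAT3 passed the threshold in edgeR with library size only (-0.12, adjusted p = 0.0144) and with the replicate block (-0.0724, adjusted p = 0.044), and lay between -0.09 and -0.04 with each library left out (adjusted p between 0.0522 and 0.397). The replicate block changed no other call of a STAT gene. STAT2 (-2.39 to -2.32), STAT6 (-0.67 to -0.64) and STAT5B (0.14 to 0.20) kept direction and call with each library left out. They did so under the other settings run as well, where library size only gave -2.40, -0.71 and 0.13 (adjusted p = 0.0485 for STAT5B in edgeR). The number of STAT genes called without a fold minimum, 4, lay between 3 and 4 with each library left out and was 5 with library size only and with the replicate block. That of genes past 2-fold in the 10 lists, 36, lay between 34 and 37 with each library left out and was 32 with a mean of at least 50 counts. These 36 were among 98 tested genes of the lists and included the 20 ISGF3 targets, beside 12.6% of all tested genes past 2-fold. The changes of the log2 ratios lay between -1.74 and -1.66 (STAT2 to STAT6), -0.26 and -0.22 (STAT3 to STAT5B) and -1.56 and -0.81 (STAT5A to STAT5B) with each library left out. Within same-numbered pairs, the replicate block of the ratios, p was 0.25 (exact sign-flip test), the smallest that 3 pairs allow, for each of the ratios of STAT2 to STAT6 and of STAT3 to STAT5B. For the ratio of STAT5A to STAT5B the exact sign-flip test gave p = 0.5. With coding length in place of exon length, the share of STAT3 was 68.2% in shCTL and 81.6% in shPBRM1 and that of STAT2 was 18.2% and 4.47%, from the other divisor alone.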
